A study of Mus musculus with 8 samples.

Results

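Plasmin is a broad serine protease that circulates as its zymogen plasminogen (Plg) and is set free by the tissue-type activator (Plat) or by urokinase (Plau), which works on the cell surface when bound to its receptor (Plaur). Serpins such as neuroserpin (Serpini1), protease nexin-1 (Serpine2) and the type 2 plasminogen activator inhibitor (Serpinb2) trap the activators or plasmin. In the brain, reactive astrocytes are known as a source of plasminogen activators, and plasmin is known to release Fas ligand from cell surfaces and to cut the adhesion molecule L1cam, which carcinoma cells can use to spread along capillaries. Tumor cells that settle in the brain have been described to express anti-activator serpins.

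The expression of 9 genes of this system was compared between E-cadherin high (E-cadHI) and E-cadherin low (E-cadLO) tumor cells of breast cancer brain metastases (BCBM). The 9 genes were chosen by symbol as the plasminogen activators, their receptor, plasminogen, 4 serpins (with heparin cofactor II, Serpind1, a thrombin inhibitor) and L1cam, and all 9 were found among the 31894 named genes of the count table. The BCBM grew in the brains of adult female FVB mice, labelled wild type, after intracranial injection of mammary tumor organoids. These organoids came from the PyMT model, in which the polyoma middle T antigen drives mammary tumors, and expressed an E-cadherin-mCFP fusion, whose fluorescence reports the protein level, together with H2B-Dendra2, a nuclear fluorescent marker. The organoids had been enriched for growth in the brain by repeated intracranial passage, and all tumors therefore descend from 1 line. From each of 4 mice (57, 58, 67 and 70), 1 population of E-cadHI and 1 of E-cadLO cells was sorted and sequenced, which gives 4 libraries per group. The question was how tumor cells that had lost the E-cadherin reporter differ from those that had kept it.

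Library totals ranged from 9102781 to 15769200 counts, so that 3 counts, used here as the detection floor, correspond to 0.190 to 0.330 CPM, the counts scaled to a common library total. Levels are given as CPM after TMM scaling of the library sizes, and a difference within a mouse is the log2 of the E-cadLO over the E-cadHI value after adding 0.5 CPM to each. Cdh1, the gene of E-cadherin, on whose fluorescent protein the cells were sorted, was lower in the E-cadLO library of mice 57, 67 and 70 (log2 difference -0.67, -0.15 and -0.86) but higher in that of mouse 58 (0.46). Since the mRNA of mouse 58 goes against its sort labels, the edgeR fold changes of the tested members are also given without this mouse. Epcam, an epithelial surface protein, was detected in all 8 libraries and was lowest in the library labelled E-cadLO of mouse 57, with 288 CPM against 789 to 1343 CPM in the other 7.

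Promoter sequences were at hand for 6 of the 9 genes (RefSeq, GRCm38.p6). The 250 bases before the start of Plaur, which was higher in the E-cadLO cells of every mouse, and of Serpine2, the most abundant of the 9 genes, are shown to set their composition side by side. Capitals mark matches to the AP-1 motif TGANTCA, which occurs once in Plaur, and to the GC box GGGCGG, both searched on both strands.
Plaur (chr7:24462233-24462482, plus strand): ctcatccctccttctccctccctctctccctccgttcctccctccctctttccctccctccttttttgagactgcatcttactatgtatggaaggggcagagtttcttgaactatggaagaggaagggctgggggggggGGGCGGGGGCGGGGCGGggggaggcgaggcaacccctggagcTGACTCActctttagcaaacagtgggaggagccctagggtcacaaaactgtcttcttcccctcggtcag
Serpine2 (chr1:79858666-79858915, minus strand): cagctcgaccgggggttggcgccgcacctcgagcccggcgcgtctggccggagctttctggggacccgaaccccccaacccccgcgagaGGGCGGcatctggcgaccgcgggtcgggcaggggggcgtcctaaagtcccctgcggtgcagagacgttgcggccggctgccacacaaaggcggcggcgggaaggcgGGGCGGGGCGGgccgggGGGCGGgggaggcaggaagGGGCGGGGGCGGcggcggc
The Plaur window held 1 AP-1 match, which begins 69 bases before the start, and 3 GC boxes, which begin 111, 105 and 100 bases before it. The Serpine2 window held 6 GC boxes and no AP-1 match, and 78.8% of its bases were G or C, against 59.6% in Plaur. It lies within the longer Serpine2 gene of the GENCODE M21 annotation, which has a further start upstream. Of the 32851 promoter windows of this length in the table, 6.75% held the AP-1 motif and 32.7% a GC box. Serpinb2 held the same AP-1 match in both of its overlapping windows, together with a TATA box (TATAAA, in 12.4% of all windows). Each of the 2 overlapping L1cam windows held 1 GC box, and the windows of Serpini1 and Serpind1 held none of these motifs. The cyclic AMP response element TGACGTCA (1.55% of all windows) was in none of the 6 genes. A match is a stretch of letters and does not show that a factor binds there.

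Among the 9 genes, 6 passed the filter on low counts and were tested (Plat, Plau, Plaur, Serpine2, Serpini1 and L1cam). Plau and Plaur were higher in E-cadLO than in E-cadHI cells of all 4 mice, Plat in 3 of 4 mice, and Serpine2, Serpini1 and L1cam had no common direction. None of the 6 passed an adjusted p of 0.05 in the edgeR quasi-likelihood test over 13598 genes, in which 0.0% of all genes were called higher and 0.0% lower in E-cadLO cells. At an unadjusted p under 0.05, that test had 1109 genes higher and 790 lower. When the mouse entered the model as a replicate block, edgeR called 0.728% of genes higher and 0.0% lower, and again none of the 6. DESeq2, applied to the same counts, called 2.64% of 14606 genes higher and 0.294% lower, and these included Plat, Plau and Plaur. With the mouse as a block, DESeq2 called 7.19% of 14344 genes higher and 1.51% lower, and these included Plau and Plaur but not Plat.

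**Figure D1:**
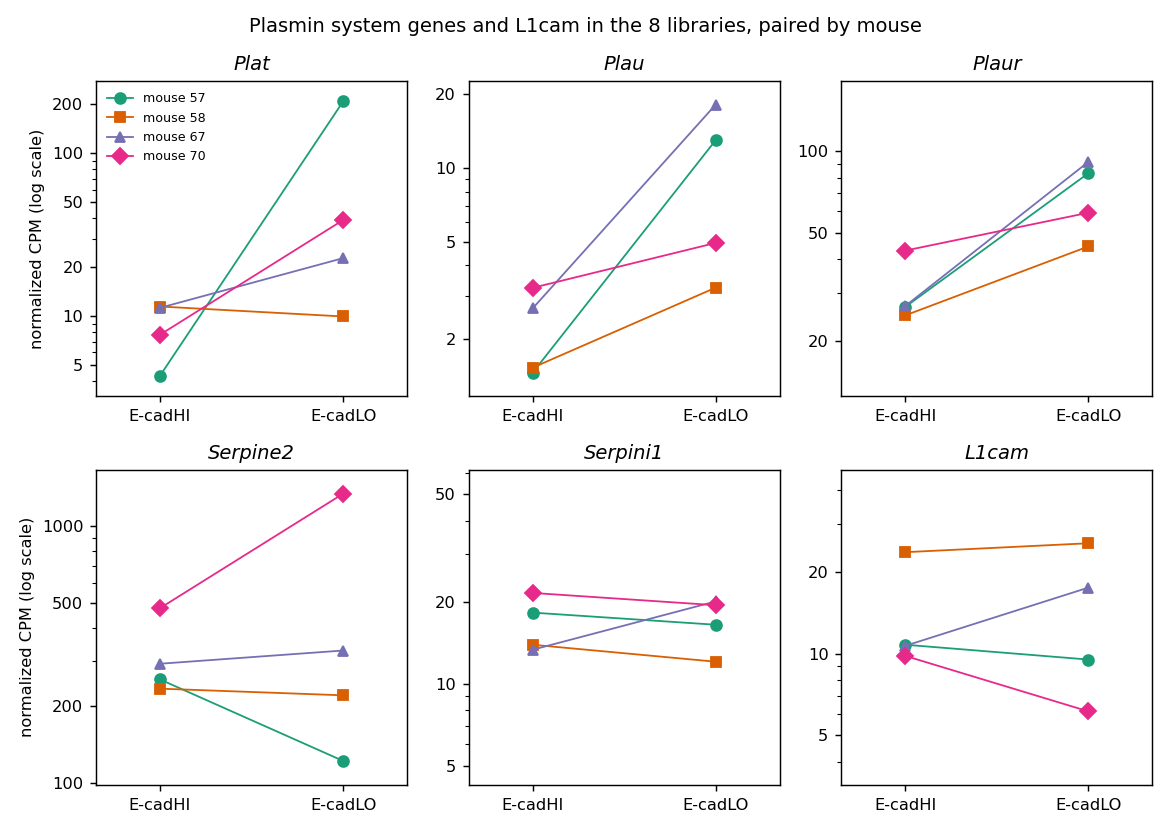
Normalized CPM (log axis) of the 6 tested genes in the E-cadHI and E-cadLO library of each mouse, with 1 line per mouse. The lines of Plau and Plaur go up in all 4 mice, that of Plat goes up steeply in mouse 57 (from 4.32 to 208 CPM) and slightly down in mouse 58, and those of Serpine2, Serpini1 and L1cam go in different directions.

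Plaur, the urokinase receptor (chromosome 7, 24462484 to 24475968, plus strand, GRCm38), tethers urokinase to the cell membrane. Its level was 26.7, 24.8, 26.9 and 43.0 CPM in the E-cadHI cells of mice 57, 58, 67 and 70, and 83.0, 44.6, 91.4 and 59.3 CPM in their E-cadLO cells. Every E-cadLO library was thus above every E-cadHI library, a separation seen in 3.88% of the tested genes, while 4.21% were separated in the opposite direction. The difference was larger in mice 57 and 67 (log2 difference 1.62 and 1.75) than in mice 58 and 70 (0.83 and 0.46). In the edgeR fit Plaur was 2.30-fold higher in E-cadLO cells (log2 fold change 1.20, SE 0.27, 95% interval of the fold 1.50 to 3.53, adjusted p = 0.251). The replicate block gave nearly the same size (log2 fold change 1.18, adjusted p = 0.0890 in edgeR). DESeq2 called Plaur with and without the block (adjusted p = 0.00103 and 0.00968). Without mouse 58, the log2 fold change of the edgeR fit was 1.30 (adjusted p = 0.306). An exact permutation test of the 4 against 4 libraries gave p = 0.0286 and an exact sign-flip test over the 4 mice p = 0.125, both two-sided and both the smallest value that the design allows.

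Plau, urokinase (chromosome 14, 20836662 to 20843388, plus strand), is the activator that Plaur binds. It was a rare transcript, with 1.46, 1.53, 2.67 and 3.24 CPM in the E-cadHI cells of mice 57, 58, 67 and 70. The E-cadLO cells held 13.0, 3.25, 18.1 and 4.94 CPM. Mice 57 and 67 again had the larger differences (log2 difference 2.78 and 2.55), and mice 58 and 70 the smaller ones (0.88 and 0.54). The groups did not overlap, although only just, since the highest E-cadHI and the lowest E-cadLO value both round to 3.2 CPM. These rest on 37 counts in the E-cadHI cells of mouse 70 and 28 counts in the E-cadLO cells of mouse 58. The edgeR fold was 4.42 (95% interval 1.72 to 11.4, log2 fold change 2.14, SE 0.61, adjusted p = 0.270), and 3.78 with the replicate block (adjusted p = 0.157). DESeq2 called Plau without and with the block (adjusted p = 0.0143 and 0.00901). The edgeR log2 fold change without mouse 58 was 2.31 (adjusted p = 0.306). The exact tests gave the same smallest possible values as for Plaur. A direction shared by 4 of 4 mice, as for Plau and Plaur, was seen in 16.7% of the tested genes upward and in 14.2% downward.

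Receptor and ligand varied together, with a Pearson correlation of 0.956 between the log2 levels of Plau and Plaur over the 8 libraries. This is a description, since both libraries of a mouse share the animal and the larger part of the spread lies between the groups. Per kilobase of exon, counted over all annotated exons of a gene, Plaur exceeded Plau 9.10 to 16.5 times in E-cadHI cells and 4.56 to 12.4 times in E-cadLO cells.

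Plat, the tissue-type activator (chromosome 8, 22757727 to 22782844, plus strand), had 4.32, 11.5, 11.3 and 7.71 CPM in the E-cadHI cells of mice 57, 58, 67 and 70. In E-cadLO cells it reached 208 CPM in mouse 57, 22.8 CPM in mouse 67 and 39.0 CPM in mouse 70, but 9.98 CPM in mouse 58. Mouse 57 thus combined the lowest E-cadHI level with the highest E-cadLO level, and the groups overlapped because of mouse 58. The log2 differences were 5.44, -0.19, 0.98 and 2.27 for mice 57, 58, 67 and 70. The fold of 8.09 in the edgeR fit (95% interval 2.08 to 31.4, log2 fold change 3.02, SE 0.87) had an adjusted p of 0.279, and the fold with the replicate block was 4.07 (adjusted p = 0.256). DESeq2 called Plat without the block (adjusted p = 0.0409) but not with it (adjusted p = 0.199). Without mouse 57 the edgeR log2 fold change decreased to 1.20 (adjusted p = 0.644), and without mouse 58 it was 3.58 (adjusted p = 0.306). Two-sided exact tests gave p = 0.0857 for the 4 against 4 libraries and p = 0.25 over the 4 mice.

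Plg, plasminogen itself (chromosome 17, 12378609 to 12419384, plus strand), is made mainly by the liver. At most 2 counts per library were found, so that its level was at or under the floor in all 8 libraries and no fold is given. Some of its exons overlap those of Slc22a3 on the other strand.

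**Figure D2:**
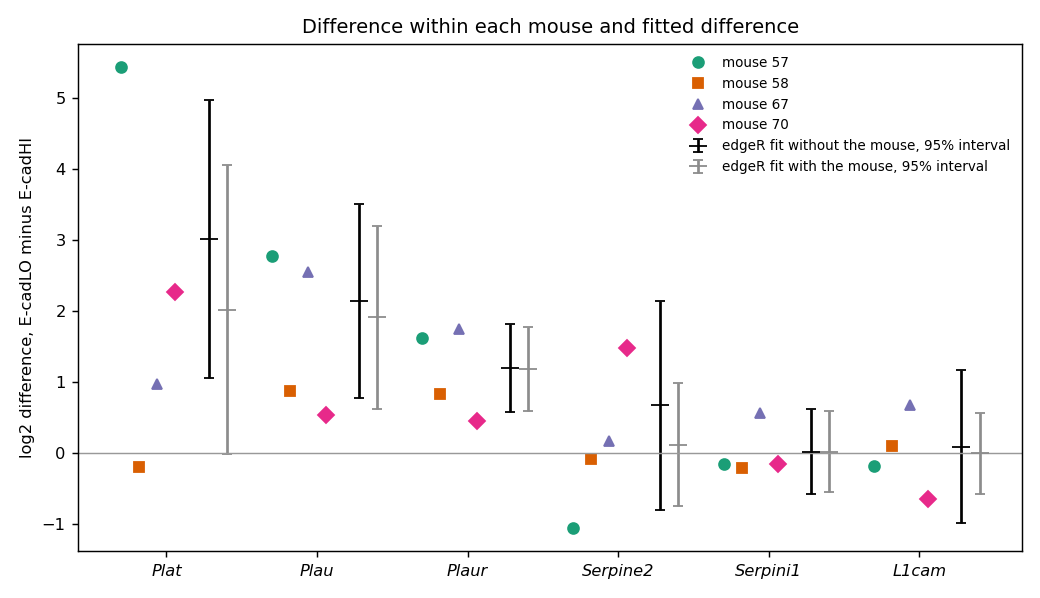
Log2 difference between E-cadLO and E-cadHI cells for each mouse (colored symbols) and the edgeR log2 fold change with its 95% interval, without (black) and with (grey) the mouse in the fit. All 4 symbols of Plau and Plaur lie above 0, and those of Plat reach from -0.19 to 5.44.

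Among the inhibitors, Serpine2 (chromosome 1, 79794197 to 79861180, minus strand) encodes protease nexin-1, which blocks urokinase, the tissue-type activator, plasmin and thrombin. Serpine2 had 253, 233, 292 and 480 CPM in the E-cadHI cells of mice 57, 58, 67 and 70, and 122, 220, 328 and 1336 CPM in their E-cadLO cells. The E-cadLO libraries thus held both the lowest (mouse 57) and the highest (mouse 70) level of all 8. Within the mice, the log2 differences were -1.05, -0.09, 0.17 and 1.48. The edgeR log2 fold change was 0.68 (SE 0.65, 95% interval -0.79 to 2.15, adjusted p = 0.617) and fell to 0.12 with the replicate block (95% interval -0.74 to 0.99, adjusted p = 0.874). Without mouse 70 it was -0.21 (adjusted p = 0.782), so the sign of the fit rests on this mouse, and without mouse 58 it was 0.81 (adjusted p = 0.607). The exact permutation test gave p = 0.857 for the libraries and the exact sign-flip test p = 0.75 over the mice.

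Neuroserpin, encoded by Serpini1 (chromosome 3, 75557547 to 75643495, plus strand), is an inhibitor of the tissue-type activator known from neurons. It was present at 18.3, 13.9, 13.4 and 21.6 CPM in E-cadHI cells and at 16.5, 12.1, 20.1 and 19.5 CPM in E-cadLO cells of mice 57, 58, 67 and 70. The ranges of the groups largely coincided. Serpini1 was slightly lower in the E-cadLO cells of mice 57, 58 and 70 (log2 difference -0.14, -0.20 and -0.15) and higher in mouse 67 (0.57). The fold of the edgeR fit was 1.02, and its 95% interval of 0.67 to 1.54 leaves room for differences of up to about these sizes (adjusted p = 0.970, edgeR). Without mouse 58 the log2 fold change was 0.09 (adjusted p = 0.872, edgeR). Both exact tests gave p = 1.0.

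Serpinb2 (chromosome 1, 107511423 to 107535478, plus strand), an inhibitor of urokinase and the tissue-type activator, had 0 counts in all 4 E-cadHI libraries. Its E-cadLO libraries held 16 counts in mouse 57, 4 counts in mouse 58 and 0 counts in mice 67 and 70. With the floor of 3 counts put in place of the 0 counts in E-cadHI cells, the ratio was 5.65 in mouse 57 and 2.02 in mouse 58. These ratios depend on the chosen floor and are not lower bounds. The counting interval of the ratio, of the kind given for Serpind1 below, had its lower end at 4.08 in mouse 57. In mouse 58 its lower end was 1.0, so that the counts there hardly set the groups apart. Serpinb2 shares exon sequence with Serpinb10 on the same strand, so that reads there cannot be assigned with certainty.

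For Serpind1 (chromosome 16, 17331371 to 17343575, plus strand), the E-cadHI cells held 3, 8, 7 and 4 counts in mice 57, 58, 67 and 70, and the E-cadLO cells 15, 0, 1 and 65 counts. Mice 57 and 70 thus had more Serpind1 in E-cadLO cells, with a ratio of 5.30 (95% counting interval 1.50 to 28.5) in mouse 57 and 12.9 (4.81 to 48.8) in mouse 70. In mouse 67 the ratio was 0.129 (0.00287 to 1.01). In mouse 58, with 0 counts in E-cadLO cells, the upper end of the 95% counting interval of the ratio was 0.8875. These intervals cover counting error only. The gene lies on the opposite strand within Pi4ka, whose unspliced reads cannot be told apart from it if counting did not use strand, which is not stated.

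L1cam (chromosome X, 73853778 to 73896105, minus strand), the adhesion molecule that plasmin cuts, had 10.8, 23.7, 10.7 and 9.81 CPM in the E-cadHI cells and 9.51, 25.5, 17.5 and 6.13 CPM in the E-cadLO cells of mice 57, 58, 67 and 70. Both libraries of mouse 58 had the highest level in their group. Within the mice the log2 difference was -0.17, 0.11, 0.69 and -0.64. The fold in the edgeR fit was 1.07 with a 95% interval of 0.50 to 2.26 (adjusted p = 0.935). With the replicate block the interval narrowed to 0.68 to 1.48 (adjusted p = 0.999, edgeR). Leaving out mouse 58 gave a log2 fold change of 0.10 without the block (adjusted p = 0.916, edgeR). The exact permutation and sign-flip tests both gave p = 1.0. A small part of its exons overlaps Arhgap4 on the same strand.

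Levels of different genes were compared as CPM per kilobase of exon. Exon length was the union of all annotated exons of a gene (GENCODE M21), not the length of the mRNA expressed here. The order of the genes and the size of ratios between genes therefore depend on the annotation. In E-cadHI cells, Serpine2 was highest (37.9 ± 13.6, SD, n = 4), followed by Plaur (11.6 ± 3.25), Serpini1 (2.31 ± 0.54), L1cam (1.87 ± 0.90), Plat (1.39 ± 0.54) and Plau (0.94 ± 0.37). The ranges of Serpini1, L1cam, Plat and Plau overlapped from each gene to the next, whereas Serpine2 was above Plaur, and Plaur above Serpini1, in every library without overlap. In E-cadLO cells the mean order was Serpine2 (60.5 ± 67.9), Plaur (26.6 ± 8.21), Plat (11.2 ± 14.9), Plau (4.15 ± 2.95), Serpini1 (2.34 ± 0.51) and L1cam (1.997 ± 1.18), and the ranges of all neighbors overlapped. By their means, both activators stood behind Serpini1 and L1cam in E-cadHI cells and in front of them in E-cadLO cells. Single libraries differed from this order, since Plat was above L1cam in the E-cadHI cells of mouse 67 and Plau was above Serpini1 in only 2 of the 4 E-cadLO libraries.

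The balance of activator and inhibitor within a library does not depend on the scaling between libraries. Per kilobase, Plat amounted to 0.0214 to 0.0654 of Serpine2 in the 4 E-cadHI libraries. In E-cadLO cells this ratio was 2.27 in mouse 57, where Plat thus exceeded Serpine2, and 0.0603, 0.0921 and 0.0388 in mice 58, 67 and 70. The ratio of Plau to Serpine2 was 0.0202 to 0.0321 in E-cadHI cells and 0.372, 0.0518, 0.193 and 0.0130 in the E-cadLO cells of mice 57, 58, 67 and 70. Of the 4 mice, mouse 70 alone had a lower ratio in E-cadLO than in E-cadHI cells, and its E-cadLO library was the one with the highest Serpine2. The ratio of Plat to Serpini1 was 0.275, 0.962, 0.986 and 0.416 in the E-cadHI cells of mice 57, 58, 67 and 70. In their E-cadLO cells it was 14.7, 0.965, 1.32 and 2.335, so that it hardly differed in mouse 58.

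Over the 13598 tested genes the median log2 fold change was 0.06, with 7489 above 0 and 6109 below. The 6 members had a median of 0.94, with 6 of 6 above 0. This median describes only those that passed the filter. By the size of the fold change, Plat ranked 117, Plau 444 and Plaur 1749 from the top of the tested genes. Ordered by p, Plaur came first among the members, at rank 86.

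Of the other genes of the plasmin system, 11 of the 20 in the table were tested, and 0 of the 11 passed the edgeR test in either direction, with or without the block. The edgeR fit had 8 of them above 0 and 3 below, with a median of 0.64 (0.92 with the block). Lrp1, the endocytic receptor that clears activator and inhibitor complexes, was higher in E-cadLO cells of all 4 mice, with means of 4.43 ± 4.29 and 31.6 ± 34.7 CPM (SD, n = 4). It was called by DESeq2 without the block (adjusted p = 0.0177) but not with it (adjusted p = 0.155), nor by edgeR (adjusted p = 0.298). Its log2 difference was 6.10 in mouse 57 and 1.12 to 1.39 in the other 3. Mrc2, a collagen receptor that associates with Plaur, reached 20.1 CPM in the E-cadLO cells of mouse 57 and at most 1.75 CPM elsewhere.

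The surface molecules that bind plasminogen were abundant in both groups. S100a10, which forms a plasminogen-binding complex with Anxa2, had 136 ± 17.5 CPM in E-cadHI and 201 ± 81.8 CPM in E-cadLO cells and was higher in E-cadLO cells of all 4 mice (edgeR adjusted p = 0.363). Anxa2 had 1478 ± 283 and 1799 ± 483 CPM (adjusted p = 0.571, edgeR). Eno1, a glycolytic enzyme that can also bind plasminogen at the surface, had 3383 ± 415 and 2520 ± 837 CPM (adjusted p = 0.484, edgeR), and the plasminogen receptor Plgrkt 48.1 ± 5.13 and 42.0 ± 6.46 CPM (adjusted p = 0.586, edgeR). The fibrinogen genes Fga, Fgb and Fgg, which encode the main substrate of plasmin in blood, did not pass the filter.

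Beyond these, 13 of the 57 other serpins in the table were tested, of which 11 had a log2 fold change above 0 and 2 below. The median was 0.62 in the edgeR fit and 1.05 with the replicate block. Serpinb5, known as maspin, an epithelial serpin, was lower in the E-cadLO cells of all 4 mice (294 ± 76.3 against 180 ± 72.8 CPM, edgeR adjusted p = 0.384). Serpinf1 had means of 1.78 and 10.5 CPM and was higher in E-cadLO cells of all 4 mice (adjusted p = 0.298 with edgeR and 0.0324 with DESeq2). With the block, 0 of these 13 serpins were called by DESeq2.

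**Figure D3:**
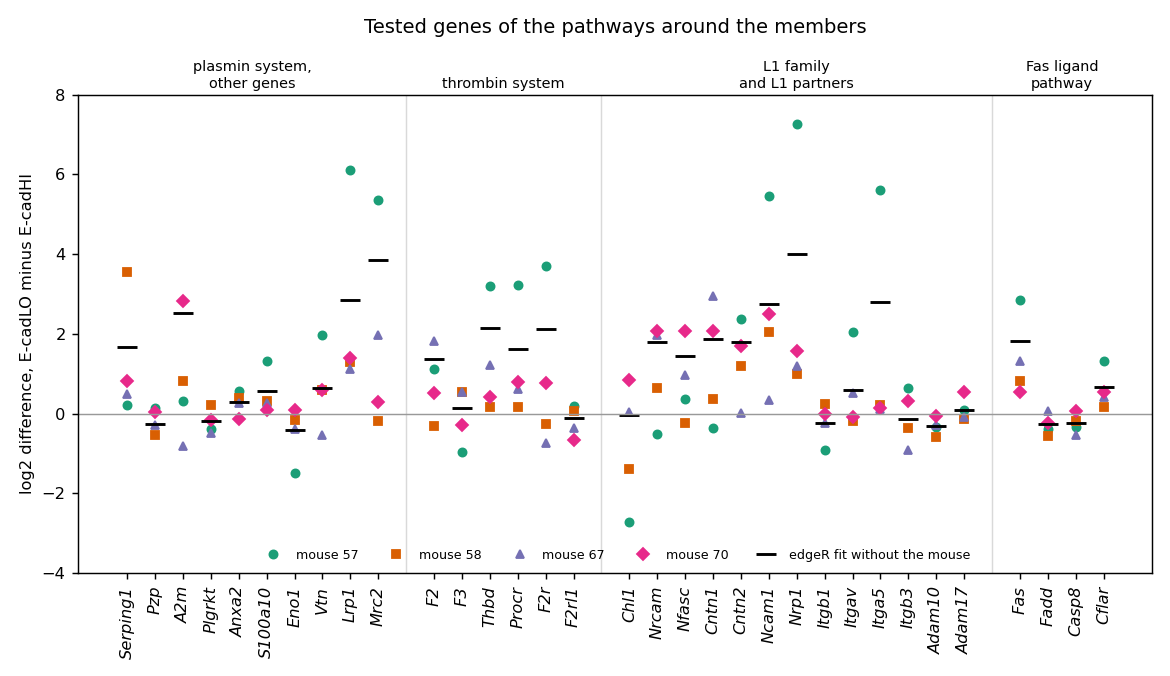
Log2 difference between E-cadLO and E-cadHI cells in each mouse (symbols) and in the edgeR fit without the mouse (black bars) for the genes reported here from 4 lists. The symbols of mouse 57 are the highest for Lrp1, Mrc2, Ncam1, Nrp1, Itga5 and F2r, and those of Adam10 all lie below 0.

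In the thrombin system, which Serpine2 and Serpind1 inhibit, 6 of 12 genes were tested and 0 passed the edgeR test (5 above 0 and 1 below, median 1.50). F3, the tissue factor that starts coagulation, was well expressed in both groups (300.0 ± 57.6 and 332 ± 188 CPM, edgeR adjusted p = 0.865). F2, encoding prothrombin, was rare (0.36 ± 0.37 and 0.92 ± 0.43 CPM). The thrombin receptor F2r had means of 4.61 and 20.1 CPM, but its log2 fold change of 2.13 turned to -0.28 without mouse 57. Thbd and Procr, the endothelial receptors of the protein C pathway, were rare, with means of 0.47 and 2.03 CPM for Thbd and 0.74 and 2.29 CPM for Procr (edgeR adjusted p = 0.405 and 0.453). Thbd was under the floor in both libraries of mouse 58 (2 counts each) and in the E-cadHI cells of mice 57 and 67 (1 and 2 counts). The E-cadHI cells of mouse 70 held 17 counts.

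All 13 genes of the L1 family and its binding partners were tested and 0 passed the edgeR test (9 above 0 and 4 below, median 1.45). The closest relative Chl1 had 9.86 ± 2.59 CPM in E-cadHI and 9.54 ± 9.96 CPM in E-cadLO cells. Its log2 difference was -2.72, -1.39, 0.05 and 0.84 in mice 57, 58, 67 and 70. Ncam1, a neural adhesion molecule, had 5.72 ± 6.66 and 38.0 ± 37.4 CPM and was higher in E-cadLO cells of all 4 mice (edgeR log2 fold change 2.74, adjusted p = 0.322). Nrp1, a semaphorin receptor that binds L1cam, had 3.28 ± 2.94 and 51.6 ± 80.1 CPM, of which 171 CPM came from the E-cadLO cells of mouse 57 (adjusted p = 0.284 with edgeR, 0.0377 with DESeq2 and 0.205 with DESeq2 and the block). The sheddases that also cut L1cam differed little. Adam10 was lower in E-cadLO cells of all 4 mice (193 ± 33.1 against 155 ± 27.6 CPM, edgeR adjusted p = 0.437), and Adam17 had 111 ± 24.0 and 118 ± 14.0 CPM.

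In the Fas ligand pathway, 4 of 5 genes were tested and 0 passed the edgeR test (2 above 0 and 2 below, median 0.21). The ligand Fasl was rare and was not tested. The receptor Fas had 5.36, 2.99, 5.64 and 6.31 CPM in the E-cadHI cells of mice 57, 58, 67 and 70, and 41.9, 5.69, 14.7 and 9.47 CPM in their E-cadLO cells. Fas was thus higher in E-cadLO cells of all 4 mice, with a log2 fold change of 1.83 (SE 0.60, adjusted p = 0.298 in edgeR). DESeq2 called Fas without and with the block (adjusted p = 0.0456 and 0.0180). Cflar, an inhibitor of Fas signaling, was higher in every E-cadLO than in every E-cadHI library (67.8 ± 21.9 against 43.0 ± 4.98 CPM, edgeR adjusted p = 0.301). Fadd and Casp8, the adaptor and the initiator caspase of the receptor, had log2 fold changes of -0.26 and -0.24.

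Markers of most other cell types were higher in E-cadLO libraries, whereas the neutrophil and astrocyte sums had no direction common to all 4 mice. For the sort, the study's methods describe a purity check with E-cadHI cells only. The paper also reports imaging of the reporter in both sorted populations, by which it judged the isolation successful. In bulk samples, more cells of a type and more RNA per cell cannot be told apart. The summed level of 15 microglia and macrophage markers was 38.6 to 294 CPM in E-cadHI and 242 to 1058 CPM in E-cadLO libraries, and 13 of the 15 genes were higher in E-cadLO cells of all 4 mice. The median log2 difference of this list was 1.94, 1.12, 2.69 and 1.78 in mice 57, 58, 67 and 70. Plau and Plaur, which macrophages are known to express, had their largest differences in mice 57 and 67. In the E-cadHI cells of mice 57, 58, 67 and 70, the marker sum was 38.6, 94.75, 130.9 and 294 CPM. Plau followed this order with 1.46, 1.53, 2.67 and 3.24 CPM, and Plaur was also highest in mouse 70 (43.0 CPM). In their E-cadLO cells the sum was 278, 242, 853.5 and 1058 CPM. There the orders differed, with 13.0, 3.25, 18.1 and 4.94 CPM of Plau and 83.0, 44.6, 91.4 and 59.3 CPM of Plaur. The part of microglia and macrophages in the difference of Plau and Plaur was not tested. Of 9 neutrophil markers, of which 2 passed the filter, 0 were higher in all 4 mice. Their sum was 15.9 to 25.3 CPM in E-cadHI and 11.7 to 26.4 CPM in E-cadLO libraries. S100a8 gave most of the E-cadHI sums and was lower in E-cadLO cells of all 4 mice. Other genes of the list were higher in E-cadLO cells of some mice, such as Mmp9 in mouse 57 (0.557 and 19.6 CPM) and Csf3r in mouse 67 (0.371 and 7.38 CPM).

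Fibroblast and mural markers (10 genes) summed to 9.40 to 66.7 CPM in E-cadHI libraries and to 1193, 27.3, 63.4 and 192 CPM in the E-cadLO cells of mice 57, 58, 67 and 70. In mouse 57 the collagen gene Col1a1 reached 493 CPM, against at most 8.50 CPM in the other 7 libraries. This was also the library with the highest Plat, Lrp1, Mrc2, Nrp1 and Fas and the lowest Serpine2. Endothelial markers (10 genes), of a cell type known for tissue-type activator, summed to 42.3 to 77.5 CPM in E-cadHI and 58.9 to 112 CPM in E-cadLO libraries, with mouse 57 lowest among the latter. Most of the sum in every library came from Flt1, with 33.7 CPM in the E-cadLO cells of mouse 57. The endothelial gene Tek was instead highest in that library, with 11.95 CPM against at most 4.32 CPM in the other 7. Whether fibroblast, mural or endothelial cells contribute to Plat was not tested.

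The sum of 10 astrocyte markers was 1201 to 3658 CPM in E-cadHI and 761 to 10020 CPM in E-cadLO libraries, and the sum of 10 oligodendrocyte markers 607 to 8667 and 1333 to 34390 CPM. Both sums were highest in the E-cadLO cells of mouse 70, the library with the highest Serpine2, and their E-cadHI sums were also highest in mouse 70. The astrocyte gene Gfap, for example, had 1328 CPM in the E-cadLO cells of mouse 70, against 2.09 to 338 CPM in the other 7 libraries. Aldoc gave most of the astrocyte sum in each E-cadHI library. In mouse 57, the astrocyte sum was lower in E-cadLO cells, where Aldoc had 123 CPM against 1004 CPM in E-cadHI cells. Gja1 went the other way in this mouse (127 CPM in E-cadHI and 532 CPM in E-cadLO cells). The median log2 difference of the astrocyte list in mouse 57 was 0.80. The sum of 10 neuron markers was 30.9 to 154 and 49.0 to 523 CPM, and it was higher in E-cadLO cells of all 4 mice. The sum of 10 hepatocyte markers (1.18 to 260 and 7.78 to 930 CPM) was highest in mouse 70, where Ttr, which the choroid plexus also makes, gave 259 CPM of it in E-cadHI and 929 CPM in E-cadLO cells. In the other 6 libraries the sum was at most 26.8 CPM. The sum of 12 epithelial markers was 7777 to 10510 CPM in E-cadHI and 5795 to 14690 CPM in E-cadLO libraries, so that keratins such as Krt8 and Krt18 were abundant in both groups. The part of brain cells in the levels of Serpine2, Serpini1 and L1cam was not tested.

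**Figure D4:**
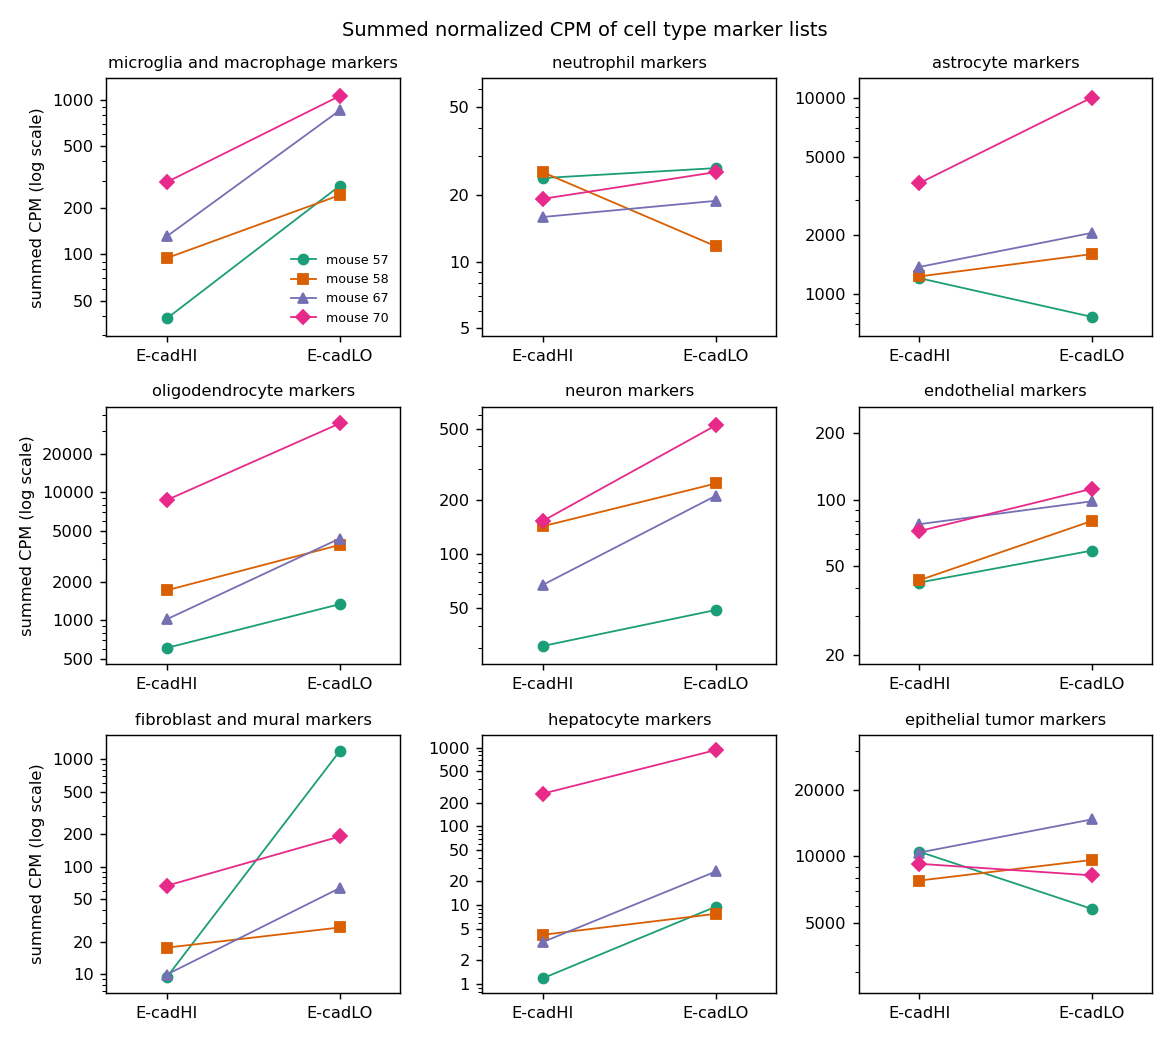
Summed normalized CPM (log axis) of 9 marker lists in the E-cadHI and E-cadLO library of each mouse. The microglia and macrophage, oligodendrocyte, neuron, endothelial, fibroblast and mural, and hepatocyte sums go up in all 4 mice, that of the fibroblast and mural list most in mouse 57, and the epithelial sum does so in 2 of 4 mice.

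The tested genes whose log2 levels were most like those of each member over the 8 libraries (up to 3 per member) were, for Plat, Steap2, Spag4 and Foxp1 (Pearson correlation 0.985, 0.980 and 0.974). For Plau they were Alkbh1, Ccdc174 and Ypel2 (0.979, 0.976 and 0.974), and for Plaur Zfp593, Ccl25 and Fcgr1 (0.976, 0.966 and 0.964). Those of Serpine2 were Rida, Fth1 and Tmem47 (0.985, 0.984 and 0.982). The values were 0.933, 0.913 and 0.905 for Tbc1d7, Ppp2r5a and Alkbh2 beside Serpini1, and 0.981 and 0.954 for Ddx6 and Sh2d5 beside L1cam. With 8 libraries from 4 mice, correlations of this size are the top of 13598 and are given as a description.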

How the data were processed

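E-cadHI and E-cadLO cells from 4 mice were measured by bulk RNA-seq (8 libraries, grouped by the sort given in the labels). Per the study's methods, the authors sequenced poly(A)-selected libraries with single reads, mapped them with HISAT2 2.1.0 to GRCm38 and deposited whole-number counts per gene without normalization. The methods name Icount as the counter and the submitters' processing notes HTSeq, and the use of strand is not stated. Entries without a gene identifier (365, at most 0.0954% of the counts of a library) were left out.

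From the counts, edgeR 4.0.16 (R 4.3.3) was run with TMM, filterByExpr by group and the quasi-likelihood test without a block, with Benjamini-Hochberg adjustment over 13598 genes and a threshold of 0.05. Standard errors were derived from the quasi-likelihood F statistic and intervals (95%) from the t distribution with its degrees of freedom. Alternatives were the mouse as a replicate block, DESeq2 1.42.0, its size factors in edgeR, no filter, at least 10 counts in every library, a robust fit and each mouse left out. An adjusted p that DESeq2 leaves empty was kept empty. Steps were tested on simulated data. Python 3.11, pandas 2.3, scipy 1.17 and matplotlib 3.10 served for tables, exact tests and figures. Ratios used a pseudocount of 0.5 CPM and understate the change of low genes. Libraries held 9102781 to 15769200 counts.

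The numbers pair libraries because both come from 1 animal. Deviations from the group means correlated at 0.248 to 0.692 within a mouse and at most 0.144 between mice. Each group mean was taken over the same 4 libraries, so positive values within mice pull those between mice down. The contrast is therefore given as a description only. The 4 mice are separate animals that carry tumors of 1 organoid line.

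The members and gene lists were chosen with earlier results of these data known. Named are all members, tested genes of the pathway lists, up to 3 genes per marker list by mean level and the 3 genes most like each member. Cdh1 (the sorted protein), Epcam, Col1a1, Gfap, Serpinb5 and Serpinf1 were named after their values were seen or to check the labels. Flt1, Tek, Rgs5, Aldoc, Gja1, S100a8, Mmp9 and Csf3r were also named with their values seen. A pathway gene and a gene most like a member are not reported here, although the counts over the lists include them. Hrg, the imaging and the RT-qPCR of the study were not analysed here.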

Additional observations from a re-analysis of the deposited data

Results flagged for a closer look

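Of 23 groups of 4 values (the levels of the detected members in each group and their differences within a mouse), 5 had 1 value far from the other 3, where 1.15 would be expected by chance at 1 in 20. Levels were taken as CPM without a log, and the differences are made from the same libraries. The expected number assumes independent, normally distributed values and is only a guide. Plat had 208.4 CPM in the E-cadLO cells of mouse 57, against 9.98 to 39.0 CPM in the other 3. Plaur had 43.02 CPM in the E-cadHI cells of mouse 70, against 24.8 to 26.9 CPM. Serpine2 reached 1336 CPM in the E-cadLO cells of mouse 70, against 122 to 328 CPM. The log2 difference of Serpini1 was 0.5742 in mouse 67, against -0.20 to -0.14 in the other mice. L1cam had 23.67 CPM in the E-cadHI cells of mouse 58, against 9.81 to 10.8 CPM. The causes were not tested.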

How the results depend on the processing

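The directions of Plat, Plau and Plaur were kept under all 15 alternatives, with log2 fold changes from 1.04 to 3.58, 1.48 to 2.62 and 0.99 to 1.50. With DESeq2 these were called at log2 fold changes of 3.07, 2.18 and 1.22, so that 3 members were called, and with DESeq2 and the replicate block Plau (1.94) and Plaur (1.20), so that 2 were. Genes called higher numbered 0 in the edgeR fit, 99 with the replicate block, 386 with DESeq2, 1031 with DESeq2 and the block, 23 without a filter and 3 with at least 10 counts in every library. DESeq2 called 43 genes lower, and 216 with the block. With the block, leaving out mouse 57, 58 or 70 gave 425, 63 and 2 genes higher, and leaving out mouse 57 or 58 gave 24 and 3 lower. The median of the other plasmin system genes moved from 0.64 to 0.92 with the block. Serpine2, Serpini1 and L1cam changed sign. Leaving out 1 mouse gave -0.2081 to 0.8675 for Serpine2, -0.1484 to 0.1121 for Serpini1 and -0.0940 to 0.2251 for L1cam. With the replicate block these reached -0.3046 (Serpine2 without mouse 70), -0.1534 (Serpini1 without mouse 67) and, for L1cam, -0.000508 with all mice, -0.0263 without mouse 58 and -0.2291 without mouse 67. For F3, the sign turned with the block (-0.0263), with DESeq2 and the block (-0.0102) and, in the block, without mouse 58 (-0.2102) or 67 (-0.2140). Without 1 mouse, F3 ranged from -0.0887 to 0.3305, F2r from -0.2835 to 2.76, F2rl1 from -0.3293 to 0.0325, Chl1 from -0.7771 to 0.1867 and Itgb3 from -0.3743 to 0.1564. Adam17 ranged from -0.0273 to 0.1781. In the block, F2r was -0.1128 without mouse 57, Itgb3 0.0406 without mouse 58 and 0.2441 without mouse 67, and Adam17 -0.0312 without mouse 70. None of these sign changes passed the threshold in edgeR or DESeq2. Without mouse 57, the block fit of edgeR called Lrp1, Nrcam and Ncam1 higher (adjusted p = 0.0482, 0.0331 and 0.0379). The cause of the difference between edgeR and DESeq2 was not tested. Counts of 0 to 65 limit what can be said of Plg, Serpinb2 and Serpind1.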
